A study of Mus musculus with 8 samples.

Results

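Intron-named junctions are splice junctions for which at least 1 of the joined regions carries an intron number in place of an exon number. They were taken from the deposited junction table by name: every row with the letter I and a digit on either side of the junction was a member. The rule found 1953 members among 134051 junctions, in 1351 of the 13378 genes of the table. Of these, 1234 ran from an exon-named to an intron-named region, 704 ran from an intron-named to an exon-named region, and 15 joined a pair of intron-named regions. A total of 878 genes held 1 member, 385 held 2 and 88 held 3 or more, with at most 6 in a gene. The rule used no measured value. Each member was set beside the exon-to-exon junctions of its own gene, of which the 1351 genes had 17109.

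The libraries came from FT1CL, a mouse acute myeloid leukemia line grown with interleukin-3 (5 ng/mL) in 10% serum. Its bone marrow came from a Cop1 cKO/Rosa26-Cre-ERT2 mouse aged 8 weeks, 5 days after 5-fluorouracil (150 mg/kg), and was transduced with a pMYs retrovirus that carries Trib1, so both groups share the Trib1 transgene and the Cre allele. The 4 Cop1WT libraries (genotype Cop1 +/+) came from untreated cells and the 4 Cop1KO libraries (genotype Cop1 ko/ko) from cells given 4-hydroxytamoxifen, which activates the Cre recombinase. Genotype and drug treatment therefore cannot be told apart. FT1CL is 1 line, and no label states that libraries of a group were grown as separate cultures. The p-values therefore reflect the scatter among these 8 libraries alone, and that scatter may be technical.

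An intron is cut out of a transcript by the spliceosome, which recognises a 5′ splice site, nearly always GT, and a 3′ splice site, nearly always AG. An intron that stays in the RNA is called retained or detained. Such transcripts often remain in the nucleus or are degraded, and they are known for genes of splicing factors and of CLK kinases, which phosphorylate those factors. In granulocytes, intron retention is known to change as cells mature.

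The names do not by themselves say that an intron was kept. In Gencode release M21 (build mm10), exons were numbered after setting aside intron-spanning exons, which are annotated exons of 1 transcript that run through an intron of another. Numbered this way, 94.0% of 127215 exon-to-exon names had a number pair that an annotated intron also has. The match is by number alone, and the exon numbering behind the names was not available. It therefore cannot show that both numberings are the same. Of the 1345 genes with a member in Gencode, 90.1% had an intron-spanning exon, against 33.1% of the 11902 other genes. A single splice-site pair next to an intron-spanning exon could be assigned by number to 827 members. Among them were 259 intron-to-exon names. For 204 of the 259, the step in number, less 1, equalled the count of spliced introns inside the intron-spanning exon. For 808 of the 827 (97.7%), the same pair also occurs in an annotated transcript without the intron-spanning exon. That transcript splices out 1 intron inside the exon for 640 members, 2 for 119 and 3 or more for 28. A read on such a member crosses the junction beside the named intron, and it would look the same whether that intron had been kept or removed.

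The intron-spanning exon belonged to a transcript annotated as retained intron for 547 of the 827 matched members (66.1%) and to a protein-coding transcript for 188 (22.7%). The 670 introns so spanned had a median length of 950 bases (quartiles 606 and 1508), and 52.4% were under 1000 bases. Among 6014 other introns of the same transcripts, the median was 1226 bases and 43.2% were under 1000 bases. Of the spanned introns, 536 lay between coding exons, 45 in a 5′ UTR and 45 in a 3′ UTR. For 763 members with sequence, 97.5% of the spanned introns ran from GT to AG and 1.57% from GC to AG.

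The sequences below show what such a read looks like for members that the results turn on. Each is read 5′ to 3′ from Gencode M21 transcripts, with the last 15 bases of the upstream exon in lower case and the first 15 bases after the splice in capitals. Rps13 encodes a protein of the small ribosomal subunit. The members of Brcc3, Pex11g, Cnot7 and Exoc1 were near 0 in most libraries of 1 group and not in the other.
Rps13 E2.1-I3.2: cgtagcgtccccacgTGGCTGAAGTTGACG
Rps13 I3.2-E5.1: gagaggaacagaaagGATAAGGATGCTAAA
Brcc3 E9.1-I10.2: tccataatggctcagTATTTACCAAGAATT
Pex11g E5.1-I6.2: aggcacctctgcaagCCAGCTGCCCAGGAG
Cnot7 E6.3-I7.2: taagtttaatttgacGGAGGACATGTATGC
Exoc1 E3.1-I4.2: aaagatgccatcaaaGAAAACCCGGAATTT
Each of these 6 junctions also occurs in a Gencode transcript without the intron-spanning exon, so the same letters would be read with the intron removed.

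The introns that give such members their names are next to the junction. The following lines show the ends of 2 of them, each with 8 exon bases at the 5′ end or at the 3′ end and the splice-site dinucleotide in capitals. The Rps13 intron lies at chr7:116333099-116333695 and that of Pex11g at chr8:3457310-3459286, both on the minus strand and between coding exons.
Rps13 intron, 5′ end: ccagatagGTgagtgttgatgtaatctc
Rps13 intron, 3′ end: gagtgtgtttctcttttcAGgtgtaatc
Pex11g intron, 5′ end: cttggctgGTgggtctcatgggcaccat
Pex11g intron, 3′ end: actaaacttttatttttcAGaaaaagac
A few spanned introns began with the letters of the 5′ splice site of U12-type introns, a rare class removed by the minor spliceosome. Searched on the transcribed strand at the first 8 intron bases, GTATCCTT or ATATCCTT began 9 of 651 introns beside a matched member (1.38%). The same letters began 41 of 11460 other introns that lie inside an intron-spanning exon (0.358%). A match is a description of the letters only.

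Of the members, 8 carry a genome position in the name, and 7 of these positions fell exactly on an annotated exon edge. In Ifngr1, which encodes the ligand-binding chain of the interferon gamma receptor, the pair bounds the annotated exon chr10:19603754-19603932 of a coding transcript. In Birc6, which encodes a large inhibitor of apoptosis, the pair bounds the annotated exon chr17:74565791-74566174. The region called an intron in these names is an exon in Gencode M21. The 4 junction sequences are shown with capitals as above.
Ifngr1 entry: ttatgtgcctaaaggGAAAGGTCGGGCCCC
Ifngr1 exit: aaccggagtggggagATCCTACATACGAAA
Birc6 entry: tacggatgaaccttgGTCCGAACATGAGAG
Birc6 exit: actggaaggagacagTGATGATTTGCTGGA

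Levels were expressed as reads of the junction per 1000000 junction reads of the library (RPM), after the deposited values had been turned back into whole reads. The libraries held 17333302 to 22469109 junction reads. As a check of the labels, summed Cop1 junctions stood at 162 ± 2.92 RPM in Cop1WT and 73.7 ± 6.47 in Cop1KO (SD, n = 4), and Cop1 has no intron-named junction. Of 14 markers of myeloid progenitors or granulocytes, 13 were in the table and summed to 2062 to 4901 RPM in Cop1WT and 5390 to 8265 in Cop1KO. Within that sum Cd34 was lower, at 127 to 311 and 29.5 to 104 RPM. Ctsg (220 to 1126 and 1450 to 2371 RPM), Csf2rb (917 to 1321 and 2231 to 2737 RPM), Ptprc and Ly6g were higher without overlap. The groups overlapped for Mpo (149 to 963 and 154 to 819 RPM), Elane, Prtn3, Csf3r, Kit, Itgam, Spi1 and Cebpe. Mast cell and basophil markers, mostly Cpa3, summed to 11780 to 13720 and 11520 to 16720 RPM; among them Mcpt8 was at 106 to 580 and 2138 to 2780 RPM and Prss34 at 3.42 to 53.5 and 129 to 640 RPM. Monocyte markers summed to 106 to 670.1 and 369 to 1294 RPM and stromal or epithelial ones, mostly Pdgfrb, to 159 to 222 and 32.4 to 82.8 RPM, while T-cell markers summed to at most 6.15 RPM and B-cell markers to at most 3.38. Erythroid markers summed to 88.3 to 150 and 35.1 to 150 RPM. Among them Hba-a1 (16.7 to 41.1 and 3.61 to 4.54 RPM) and Gata1 (18.6 to 35.0 and 11.25 to 17.1 RPM) were lower without overlap. Megakaryocyte markers, mostly Itga2b, summed to 525 to 861 and 518 to 900 RPM. The part of these markers in the results below was not tested. In bulk RNA, fewer cells of a type and less RNA per cell cannot be told apart. The deviations of libraries of the 2 groups with the same number in their labels correlated at 0.146 to 0.459. Those of libraries with different numbers correlated at -0.257 to 0.140. Cop1KO replicate 4 stood nearer to Cop1WT than the other knockout libraries for several members below.

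Intron-named junctions took 1.16 to 1.26% of all junction reads in every library. The share was 1.19, 1.22, 1.26 and 1.20% in Cop1WT replicates 1 to 4 and 1.16, 1.21, 1.20 and 1.19% in Cop1KO replicates 1 to 4. The groups overlap, with means of 1.22 ± 0.0296% and 1.19 ± 0.0212% (SD, n = 4). As a percentage of the exon-to-exon reads of the same genes, the shares were 11.4 ± 0.344% and 11.4 ± 0.453%. The 10 most-read members gave 25.4 to 28.9% of all member reads. Exon-to-intron names took 58.9 to 60.9% of member reads and intron-to-exon names 38.1 to 40.3%.

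The typical member was read somewhat below the level of its gene, with a wide spread. The median member had a mean of 28.1 reads per library, against 43.2 for exon-to-exon junctions of the same genes; 1111 members had at least 20 reads and 421 at least 100. All members had a read in some library and 1816 had one in all 8. For 1439 members the mean of the gene's other exon-to-exon junctions could be formed (the reference). It needed at least 2 junctions with no value counted as dropped (far below the gene, by the rule given below), and at least 20 reads. The ratio of member to reference had a median of 0.782 (quartiles 0.240 and 1.14). It lay between 0.5 and 2 for 57.1%, under 0.1 for 13.1% and above 2 for 5.77%. Exon-to-exon junctions of the same genes had a median of 0.976, with 66.8% between 0.5 and 2, 9.79% under 0.1 and 8.17% above 2. The 493 matched members that share their splice-site pair with a transcript without the intron-spanning exon and had no value counted as dropped had a median ratio of 0.681. Junctions that reach 100 reads in no library cannot have a value so counted, so near-0 values can remain among the 493. The 10 matched members whose pair was not shared had a median of 0.221.

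**Figure D1:**
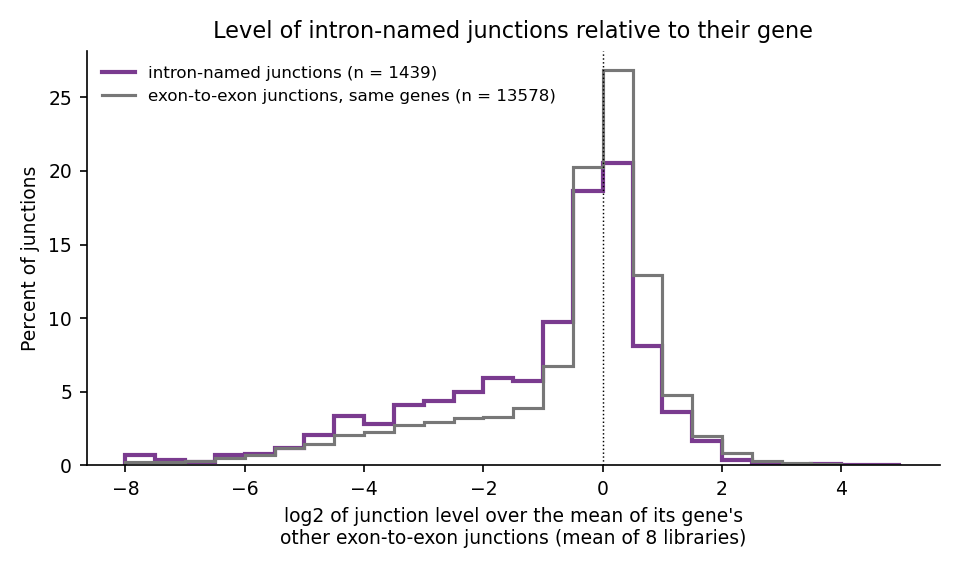
Percent of junctions (y axis) in bins of the log2 ratio of a junction's mean level to its gene's exon-to-exon reference (x axis), for 1439 intron-named junctions and for the exon-to-exon junctions of the same genes; values below the axis are in the lowest bin. Both distributions peak at a ratio near 1, and the intron-named junctions have more weight to the left, with a median ratio of 0.782 against 0.976.

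Intron-named rows mostly stood in place of an exon-to-exon row. Of 1054 exon-to-intron members that step to the next number, 3.23% had an exon-to-exon row for the same block pair, whereas 76.7% of 18128 consecutive block pairs in these genes had one. Entry (the junction into a region) and exit (the junction out of it) can be compared for the 387 intron-named regions that have both. Among the 206 with at least 20 reads on each, the levels of entry and exit were within 2-fold in 83.5%, with a median log2 ratio of exit over entry of 0.05.

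Members of ribosomal protein genes were among the most abundant. Rps13 E2.1-I3.2 stood at 399, 417, 393 and 421 RPM in Cop1WT and at 394, 366, 408 and 404 RPM in Cop1KO, with overlapping groups, and Rps13 I3.2-E5.1 at 290 to 315 and 283 to 295 RPM. Their ratios to the reference were 1.60 and 1.18.

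Rpl3, a large-subunit ribosomal protein gene that hosts small nucleolar RNAs in its introns, had 3 of the 12 most abundant members. Rpl3 E4.1-I5.2 stood at 451, 424, 401 and 427 RPM in Cop1WT and 358, 308, 324 and 373 in Cop1KO, and the groups do not overlap. The exit of the same region, Rpl3 I5.2-E7.1, stood at 424 to 466 and 324 to 384 RPM. Rpl10a I2.2-E4.1, at 263 to 298 and 235 to 266 RPM, was 3.83 times its reference. Members of Rack1, Eif4a1, P4hb and Serinc3 were also among the 12, at 164 to 262 RPM in Cop1WT. Ribosomal protein and Eif4a1 genes have near-identical copies elsewhere in the genome, so their reads are uncertain.

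Some members ran well above the other junctions of their gene, in both groups alike. This is not particular to members: 5.77% had a ratio above 2, against 8.17% of exon-to-exon junctions of the same genes. Eif4a2 E6.1-I6.2, in a gene of an RNA helicase of translation initiation, was 6.73 times its reference, at 17.5 to 24.2 RPM in Cop1WT and 18.9 to 20.4 in Cop1KO. Polr2e E1.4-I2.2, in a gene of a subunit shared by the nuclear RNA polymerases, was 4.76 times its reference. These values come from the choice of the highest ratios and are a description.

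Entry and exit of a region did not always match. Morf4l1 E5.1-I6.2, in a chromatin-factor gene, stood at 54.3, 55.4, 54.4 and 58.4 RPM in Cop1WT and 60.4, 52.6, 48.6 and 56.6 in Cop1KO. Its exit, Morf4l1 I6.2-E9.1, stood at 3.81 to 5.67 and 3.58 to 5.34 RPM. Over the 8 libraries the entry was 2.17 times the gene's reference and the exit 0.179 times, and the groups overlap in both. Morf4l1 and the first 2 of the 3 Clk3 members below were chosen after their values were seen. In Clk3, a kinase that phosphorylates splicing factors, 3 members lay at 11.4 to 17.4 RPM in all 8 libraries, near a reference of 11.8 ± 1.08 RPM in Cop1WT and 13.2 ± 1.19 in Cop1KO (SD, n = 4).

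Many members were near 0 in some libraries and at the level of their gene in others. Values are termed dropped here where no more than 6 reads were found and at least 100 were predicted, all scaled to a common library total. The prediction was the junction's own highest library, scaled by how the gene's other exon-to-exon junctions stood in the 2 libraries, so it needs a library with at least 100 reads. This held for 15% of the values of the 660 members that could be assessed, 6.58% of those of exon-to-exon junctions and 9.25% of those of exon-to-exon junctions of the same genes. By library it was 13.0 to 16.4% of member values in Cop1WT and 13.8 to 16.2% in Cop1KO. The 792 dropped values fell on 226 members: 43 members had 1, 39 had 2, 34 had 3, 37 had 4, 36 had 5, 18 had 6 and 19 had 7. Of the dropped values, 385 were exactly 1 read and 0 were 0 reads. The pattern of near-0 libraries differed from member to member, and no member was dropped in all Cop1KO and no Cop1WT library. By this rule Ipo9 I20.2-E23.2, in an importin gene and singled out for this, was dropped in all 4 Cop1WT libraries and in no Cop1KO library. It held 1 read in Cop1KO replicates 1 to 3 as well, where under 100 were predicted, and 123 in replicate 4.

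**Figure D2:**
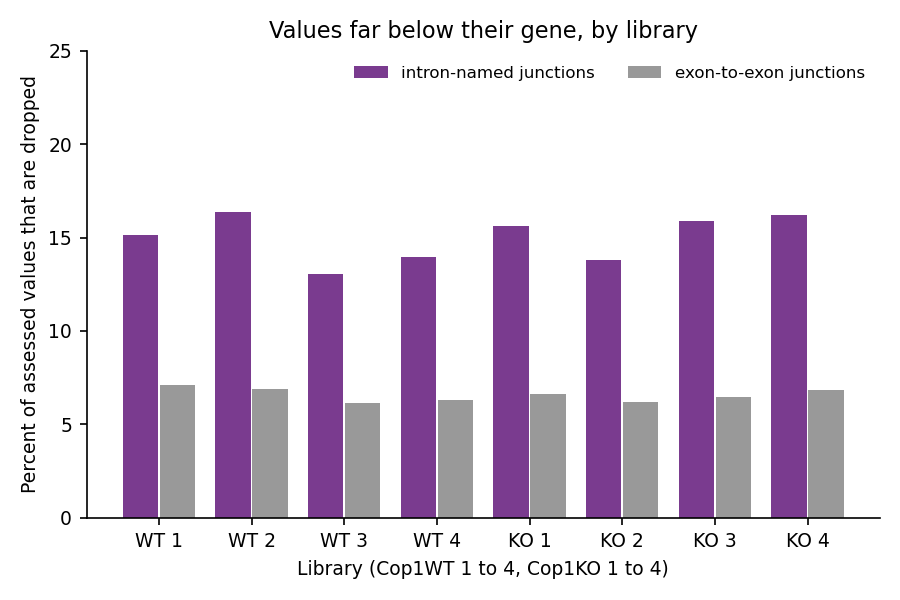
Percent of assessed values that were dropped (y axis, from 0), by library (x axis), for intron-named junctions and for all exon-to-exon junctions. Intron-named junctions are at 13.0 to 16.4% in every library, above the exon-to-exon junctions at 6.16 to 7.10%.

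The first comparison asked whether the use of intron-named junctions within their gene differed between Cop1KO and Cop1WT. Usage was the log2 level of the junction minus the log2 level of its reference, with 0.05 RPM added to each, and was tested with limma. Of 1000 members tested, 2 passed an adjusted p of 0.05 (0.2%), beside 0.0834% of the 81494 junctions tested. Both were higher in Cop1KO, where the share over all junctions was 0.0405%; 0.0429% of all junctions were lower. With the replicate number as a block, 0 members passed (3 of all 81494 junctions did), with 61 members at an unadjusted p under 0.05 in limma; edgeR on the recovered reads without a block called 2.

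Brcc3 encodes a deubiquitinase that cuts lysine-63-linked ubiquitin chains. Brcc3 E9.1-I10.2 held 3, 2, 1 and 2 reads in Cop1WT and 138, 111, 113 and 167 in Cop1KO. The groups do not overlap, and every Cop1WT library was near 0. The gene's reference stood at 7.66 ± 0.523 RPM in Cop1WT and 6.13 ± 0.443 in Cop1KO (SD, n = 4). Usage was higher by 5.79 ± 0.58 (log2, SE; adjusted p = 0.020 in limma, 0.47 with the replicate block and 0.42 in diffSplice). Of its Cop1WT values, 3 counted as dropped.

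Pex11g encodes a membrane protein of peroxisomes. Pex11g E5.1-I6.2 held 1, 2, 1 and 2 reads in Cop1WT and 89, 45, 39 and 65 in Cop1KO, and the groups do not overlap. Its reference was at 1.42 ± 0.329 and 1.44 ± 0.359 RPM (SD, n = 4). Usage was higher by 4.51 ± 0.41 (log2, SE; adjusted p = 0.014 in limma, 0.44 with the replicate block and 0.00099 in diffSplice). None of its values counted as dropped. It held at most 89 reads in a library, under the 100 that the rule for dropped values needs. Its near-0 Cop1WT values therefore could not be so counted. The Brcc3 call was lost when any 1 Cop1KO library was left out (adjusted p = 0.065 to 0.089 in limma) and held without any 1 Cop1WT library (0.030 to 0.038). The Pex11g call was lost without Cop1KO replicate 1, 2 or 4 (0.074, 0.066 and 0.053) and held without each of the other libraries (0.017 to 0.034). With 0.5 RPM added in place of 0.05, the usage changes were 3.85 and 2.53.

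Other members had near-0 libraries of which 1 or more went against the rest of the group. Cnot7 E6.3-I7.2, in a gene of a deadenylase of the CCR4-NOT complex, held 305, 252, 224 and 2 reads in Cop1WT and 1 read in each Cop1KO library. Exoc1 E3.1-I4.2, in a gene of the exocyst, held 93, 101, 113 and 105 reads and 1, 72, 1 and 2 reads. In both, the lowest Cop1WT library was still above the highest Cop1KO library. Both were lower in Cop1KO by the level test (adjusted p = 0.045 and 0.047 in limma; 0.047 and 0.058 with the block), and their references changed by -0.13 and -0.08 (log2). Both calls were close to the threshold and were lost under TMM scaling, with lower or no minimum of reads and without trend or robust moderation (adjusted p = 0.052 to 0.073). That of Cnot7 was also lost with 0.5 RPM added (0.060) and that of Exoc1 in edgeR (0.30). Leaving out 1 library ended the Cnot7 call except without Cop1WT replicate 4 (0.0022; the others 0.053 to 0.14), and the Exoc1 call except without Cop1KO replicate 2 (0.0034; the others 0.089 to 0.14). Both members were chosen after their values were seen.

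Fxyd5 E8.1-I9.2, in the gene of a regulator of the sodium pump, held 2702, 2251, 2832 and 1836 reads in Cop1WT and 1, 1, 4767 and 1 in Cop1KO. Cop1KO replicate 3 was the highest of all 8 libraries and the other 3 were near 0. The reference of Fxyd5 was at 6.21 ± 1.59 RPM in Cop1WT and 9.82 ± 2.02 in Cop1KO (SD, n = 4). Over the 8 libraries this member was 11.7 times its reference. Jak1 I7.2-E10.1, in the gene of a cytokine-receptor kinase, held 716, 598, 416 and 480 reads and 1, 446, 1 and 456 reads. In Stat5a, the gene of a transcription factor downstream of interleukin-3, E7.1-I8.2 held 2, 1, 174 and 2 reads and 127, 69, 126 and 1. Ptpn11 E7.1-I8.2, in the gene of the phosphatase SHP2, was at 9.15, 0.0531, 0.0529 and 0.168 RPM and 7.22, 6.46, 6.09 and 0.0445 RPM. The groups overlap in these 4 members, and none passed the level or the usage test.

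**Figure D3:**
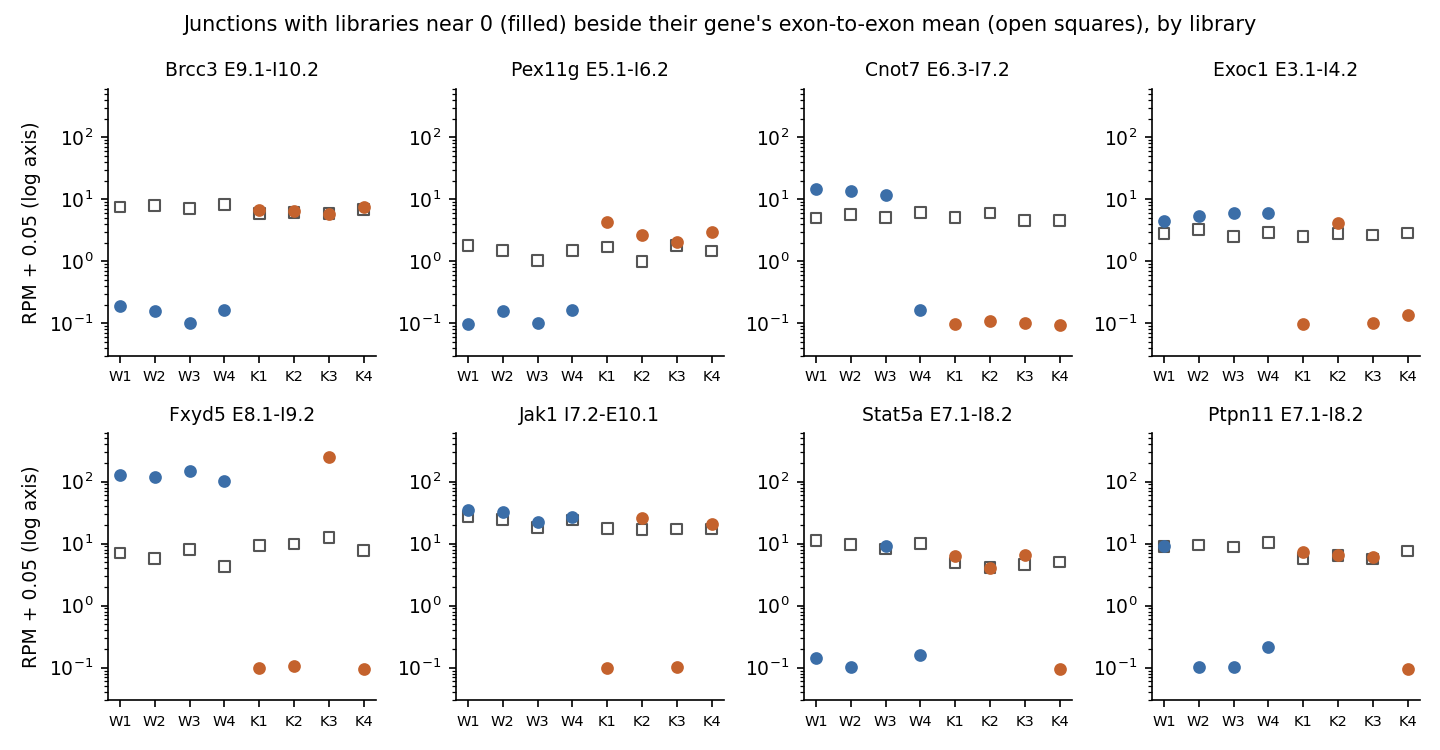
Level plus 0.05 RPM (y axis, log scale) by library (x axis, W for Cop1WT and K for Cop1KO) for 8 intron-named junctions, filled points, with the exon-to-exon reference of the gene as open squares. The references vary much less across libraries than the junctions. The junctions move between the gene's level or above it (Fxyd5 by far the most) and about 0.05 RPM, in different libraries for different genes.

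Where no value was dropped and reads were many, the members followed their gene. This choice leaves out members with a value far below their gene, so part of the closeness follows from the choice itself. Without it, 398 members with at least 100 reads were tested for usage. Of 328 members with at least 100 reads and no dropped value, 99.1% had a usage change within 0.5 (log2), with quartiles of -0.07 and 0.07. For 4049 exon-to-exon junctions of the same genes, 98.7% did. The 3 members outside were Ccdc127 E2.2-I3.2, Ssh3 I2.2-E4.1 and Psmd5 E5.1-I6.2, named after their values were seen. Each had libraries near 0: Ccdc127 at 0.0477 RPM in Cop1WT replicate 1 and 0.0445 in Cop1KO replicate 4, Ssh3 at 0.0529 in Cop1WT replicate 3 and Psmd5 at 0.0445 in Cop1KO replicate 4. With lower counts the spread grew: of all 796 members tested without a dropped value, 84.9% were within 0.5 and 9.80% beyond 1, against 90.4% and 5.36% of 9033 exon-to-exon junctions of the same genes. Of members with a dropped value, 76.0% of 204 were beyond 1. Over the 328 members, in 232 genes, the change of the member and that of its reference correlated at r = 0.948, a description across junctions that share libraries and partly genes.

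**Figure D4:**
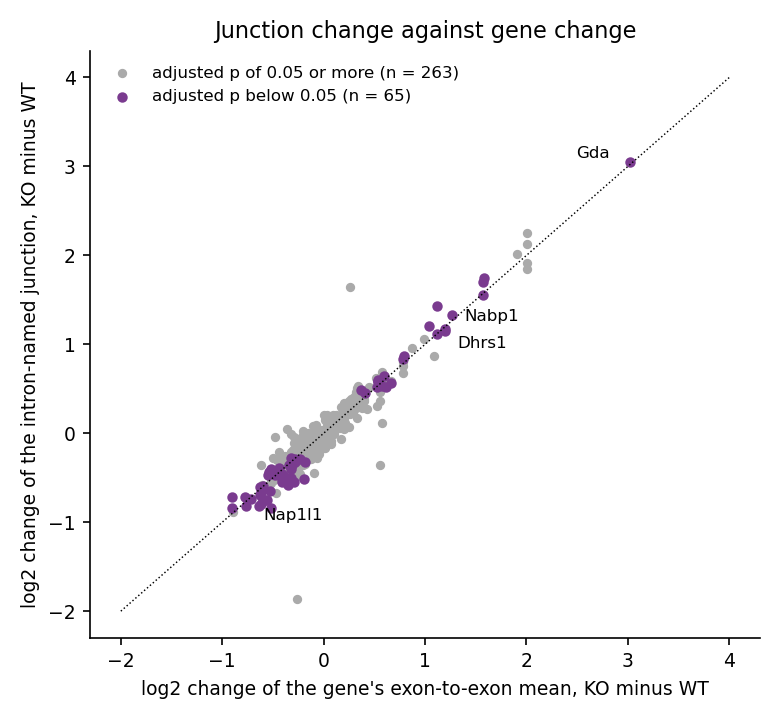
Log2 change of an intron-named junction (y axis) against that of its gene's exon-to-exon reference (x axis), Cop1KO minus Cop1WT, for 328 members with at least 100 reads and no dropped value; the dotted line marks equal change and the 65 coloured points passed the level test. Most points lie along the line, with Nap1l1 toward the lower left and Gda toward the upper right.

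The second comparison asked which intron-named junctions differed in level. Of 1111 members tested with limma, 107 passed (9.63%), 43 higher and 64 lower in Cop1KO, beside 13.8% of all 87016 junctions tested (4.9% higher and 8.87% lower). Under TMM scaling, which moves the median change of all junctions from -0.12 to -0.006, 79 passed, 55 higher and 24 lower, so the balance of directions depends on the scaling. The 107 lay in 88 genes, and 16 genes had 2 or more. The groups did not overlap for 104 of them, and for 181 of all 1111 members tested, beside 22% of all junctions. Of the 101 called members with a reference, 100 changed in the same direction as it, and 91 had a usage change within 0.5. At least 2-fold were 23 higher and 10 lower. Leaving out 1 library gave 39 calls (without Cop1KO replicate 3) to 152 (without Cop1KO replicate 4). The members named in the next 5 paragraphs were picked with their values in view, except those of Ceacam1 (entry), P4hb, Fubp1, Rpl3 and Rrp12. All p-values in them are adjusted, from limma, and all changes are log2 with SE.

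Of the 43 higher members, in 35 genes, those given first are in genes of surface proteins and signalling. The summed myeloid markers above were also higher in Cop1KO, though not each marker, and their part was not tested. In Ceacam1, an adhesion molecule of granulocytes, the exit I7.2-E11.1 stood at 0.191, 0.372, 1.75 and 0.505 RPM in Cop1WT and 5.71, 9.75, 7.64 and 5.47 in Cop1KO. It rose by 3.63 ± 0.56 (adjusted p = 0.0081), and the entry of the same region by 3.37 ± 0.66 (adjusted p = 0.018). The reference of Ceacam1 rose by 3.62, so the members and the gene's other junctions moved by the same amount; reads may be shared with the near-identical Ceacam2. Cd300lf I3.2-E5.1, in an inhibitory receptor of myeloid cells, was at 0.334 to 1.17 RPM and 1.42 to 3.69 RPM, with Cop1KO replicate 4 the lowest of its group. It rose by 2.07 ± 0.50 (adjusted p = 0.031), where the reference changed by 1.46.

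Pik3ap1 encodes an adaptor that links receptors to PI3 kinase. Its entry E3.1-I4.2 was at 2.53 to 5.29 RPM in Cop1WT and 8.78 to 12.6 in Cop1KO, and its exit at 1.40 to 4.87 and 6.34 to 13.6 RPM. They rose by 1.55 ± 0.24 (adjusted p = 0.0079) and 1.70 ± 0.39 (0.028, and 0.086 with the replicate block), where the reference changed by 1.57. In Fes, a tyrosine kinase gene of myeloid cells, 3 members rose by 0.58 to 0.60 (adjusted p = 0.0085, 0.020 and 0.022) and the reference changed by 0.53.

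Both members of Dhrs1, a dehydrogenase gene, rose with their gene. Dhrs1 E1.2-I2.2 was at 8.15, 7.27, 8.09 and 5.67 RPM in Cop1WT and 15.2, 14.7, 15.6 and 20.2 in Cop1KO. Dhrs1 I2.2-E4.1 was at 11.6, 12.8, 14.9 and 10.0 RPM and 30.8, 26.7, 24.8 and 26.8 RPM. The groups overlap in neither. The rises were 1.17 ± 0.15 and 1.15 ± 0.13 (adjusted p = 0.0051 and 0.0040), and the reference was at 7.89 ± 1.19 and 18 ± 1.77 RPM (SD, n = 4), a change of 1.19. Over the 8 libraries the entry was 0.916 and the exit 1.53 times the reference.

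Further rises were picked from other genes. Gda E15.1-I16.3, in the guanine deaminase gene, was at 1.86, 1.65, 3.97 and 1.97 RPM and 22.0, 25.1, 27.8 and 7.92 RPM. Every Cop1KO library was higher, replicate 4 the least, and the rise was 3.05 ± 0.45 (adjusted p = 0.0082; reference 3.02). Fxyd4, another regulator of the sodium pump, had an entry and an exit that rose by 4.11 ± 0.89 and 4.48 ± 0.93 (adjusted p = 0.023 and 0.020; reference 4.09), from at most 0.953 RPM in Cop1WT; these sizes depend on the value added before the logarithm, and the exit was not called by edgeR. Nabp1 E5.1-I6.2, in a gene of a single-stranded DNA binding protein, was at 12.2 to 20.2 and 33.5 to 58.8 RPM and rose by 1.33 ± 0.22 (adjusted p = 0.011; reference 1.26). Slc2a6, a glucose-transporter family gene, and Aifm2, an oxidoreductase that protects lipids, had members that rose by 1.21 ± 0.13 and 1.75 ± 0.22 (adjusted p = 0.0032 and 0.0046). P4hb E10.1-I11.2, in the protein disulfide isomerase gene, rose by 0.52 ± 0.13 (adjusted p = 0.037, not called by edgeR), although 1 Cop1WT library was above the lowest Cop1KO library. Rrbp1 I2.2-E4.1 rose by 0.80 ± 0.19 (adjusted p = 0.032) while its reference changed by 0.01, and its usage change did not pass the test. The entry of that region was at 10.7 to 14.3 and 12.5 to 16.6 RPM, with overlap. Another exit of the region, to E7.1, is given for comparison and is not counted among the members in the text. It was read more, at 22.75 against 5.11 RPM over the 8 libraries, and changed by -0.16.

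Of the 64 lower members, in 53 genes, the following are described. In Srsf7, an SR splicing factor, the entry was at 56.6, 54.7, 54.0 and 63.7 RPM and 31.4, 36.3, 32.1 and 42.5 RPM. The entry fell by 0.69 ± 0.11 and the exit by 0.60 ± 0.09 (adjusted p = 0.0094 and 0.0072; reference -0.63). Nap1l1 E15.1-I16.2, in a histone-chaperone gene, was at 63.6 to 73.3 and 38.9 to 41.0 RPM, without overlap, a change of -0.74 ± 0.07 (adjusted p = 0.0026; reference -0.71). Members of Fubp1 and Khsrp, whose proteins bind single-stranded nucleic acid, and of Luc7l3, a U1-associated factor, changed by -0.75 ± 0.17, -0.46 ± 0.11 and -0.43 ± 0.10 (adjusted p = 0.024, 0.030 and 0.026). In Caprin1, an RNA-binding protein of stress granules, 3 members changed by -0.47 to -0.55 (adjusted p = 0.0087, 0.0087 and 0.030). In Dis3, the nuclease of the RNA exosome, 2 members changed by -0.84 and -0.77 (adjusted p = 0.012 and 0.034). The 3 Rpl3 members changed by -0.29, -0.32 and -0.31 (adjusted p = 0.040, 0.028 and 0.025), and Rrp12 E11.1-I12.2, in a ribosome-assembly gene, by -0.84 (adjusted p = 0.049). Under TMM scaling the calls of Khsrp, Luc7l3, Rrp12, the 3 Rpl3 members, 1 of Caprin1 and 1 of Dis3 were lost, with the direction kept. In edgeR the calls of Rrp12 E11.1-I12.2 (adjusted p = 0.064) and Rpl3 E2.1-I3.2 (0.051) were lost; leaving out any 1 library other than Cop1KO replicate 4 also ended both. Sprn E1.1-I1.2, in a prion-like protein gene, changed by -2.70 ± 0.60 (adjusted p = 0.028) and Gga3 I11.2-E12.4, in a trafficking-adaptor gene, by -1.33 ± 0.25 (adjusted p = 0.015).

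**Figure D5:**
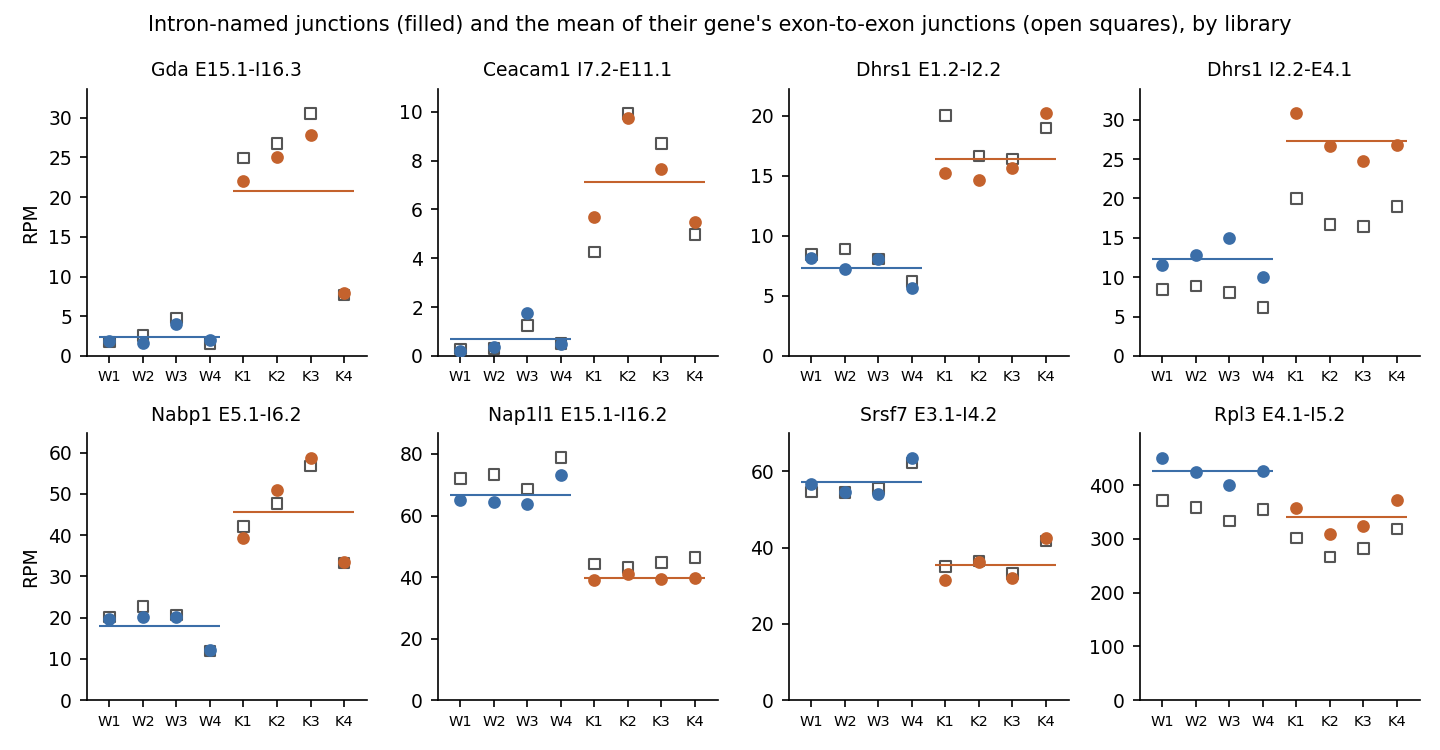
Level in RPM (y axis, from 0) by library (x axis, W for Cop1WT and K for Cop1KO) for 8 intron-named junctions whose level passed the test, as filled points with group means as lines, and the exon-to-exon reference of the gene as open squares. The junctions of Gda, Ceacam1, Dhrs1 and Nabp1 are higher and those of Nap1l1, Srsf7 and Rpl3 lower in Cop1KO, and the squares move with the points.

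Members were also counted by lists of their host genes, read against 9.63% of all members and 13.8% of all junctions called by level. Among SR, hnRNP and spliceosome genes, 20 of 62 had a member; of 18 members tested, 0 were higher and 4 lower (Srsf7 with 2, Fubp1 and Luc7l3; edgeR called 4), with a median change of -0.16. Of 15 members in CLK kinases and other genes known for detained introns, 0 passed in limma or edgeR and 0 had an unadjusted p under 0.05, with a median change of -0.09. Of 4 members of snoRNA host genes, 3 were lower, all in Rpl3; edgeR called 2. Of 6 members in ribosome assembly and MYC genes, 2 were lower, in Rrp12 and Dkc1, and edgeR called 0 (4 had an unadjusted p under 0.05 in limma). Of 6 in neutrophil and granulocyte genes, 2 were higher, both in Ceacam1; edgeR called 2. In the JAK-STAT (4 members), DNA replication (5), hematopoietic transcription factor and chromatin (5), COP1 ligase (2) and other-lineage (1) lists, 0 passed in limma or edgeR. Of these, 1 in the chromatin list and 1 in the other-lineage list had an unadjusted p under 0.05. In usage, 0 members of any list passed in limma or edgeR, and 1 member, in the neutrophil list, had an unadjusted p under 0.05. The lists were chosen with earlier results of these data known. The median change of all members tested was -0.10 and that of all junctions -0.12.

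Some list members had uneven values without passing. Lcn2 encodes a granule protein of neutrophils, whose exon-to-exon reference was at 1.69 ± 1.38 and 163 ± 111 RPM (SD, n = 4). Lcn2 E3.5-I3.2 was at 1.48, 1.17, 3.54 and 0.0561 RPM in Cop1WT and 0.0488, 0.173, 0.413 and 16.5 in Cop1KO, and only replicate 4 of Cop1KO was above the Cop1WT libraries. Cdh1 E15.1-I16.2, in the E-cadherin gene, was at 10.5, 12.6, 11.1 and 2.98 RPM and 54.8, 48.2, 45.9 and 10.1 RPM, with both libraries numbered 4 low; its level did not pass (adjusted p = 0.11) but did with the replicate block (0.0024). Cul4b, a scaffold of the ligase that holds COP1, had its entry at 5.77, 6.58, 6.51 and 5.45 RPM and 5.27, 3.92, 0.103 and 0.0890 RPM. Its exit was at 4.72 to 6.68 and 3.81 to 5.83 RPM, with overlapping groups. Snrnp70 I8.2-E10.1, in a U1 protein gene, was at 64.3 to 79.2 and 55.1 to 62.5 RPM (adjusted p = 0.10), and Sf3b1 I4.3-E6.1, in a branch-site recognition factor gene, at 38.4 to 40.7 and 32.7 to 35.4 RPM (adjusted p = 0.075). Their groups do not overlap.

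Entry and exit of a region were followed as pairs where neither had a dropped value and both had at least 20 reads. There were 167 such pairs in 158 genes, and 86.2% lay within 2-fold in level. The level changes of entry and exit were within 0.5 of each other in 88.6% of pairs, with a median difference of 0.03. Across the pairs these changes correlated at r = 0.586. Pairs with a dropped value were left out, so part of the closeness follows from that choice. In Gga3 the 2 differed: the exit was lower in Cop1KO, as above, while the entry E10.1-I11.2 was at 0.0477, 0.319, 3.81 and 0.168 RPM in Cop1WT and 3.41, 3.17, 3.25 and 2.63 in Cop1KO. Hdac7, a histone deacetylase gene, had an entry at 0.0953, 0.0531, 0.159 and 7.07 RPM and 4.29, 0.288, 0.103 and 0.356 RPM, beside an exit at 4.44 to 6.79 and 3.98 to 13.3 RPM. In both genes the entry moved between near 0 and the level of the gene within a group.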

How the data were processed

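RNA of 4 Cop1WT and 4 Cop1KO libraries was sequenced; per the labels' protocols, 2 ug of total RNA entered each strand-specific library with inserts of 200 bp. The submitters' processing notes list Trimmomatic 0.39, kallisto and mm10; the junction caller is not given in the sources used here. Each deposited value is a signal normalised by the authors. Above the lowest value, it equals (reads + 1) scaled by the library total and a length of 60 nt. Of these values, 100% gave whole reads within 0.001. The lowest value, 0.854 in every library, was held by 4846 to 7087 junctions per library and was taken as 0 reads. Samples were grouped by title.

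Members and host-gene lists were chosen with earlier results of these data known. Junctions with a mean of at least 20 reads were tested with limma 3.58.1 (R 4.3.3; trend and robust) on log2(RPM + 0.05), with Benjamini-Hochberg adjustment over all junctions and a threshold of 0.05. Such fold changes understate changes near 0.05 RPM. edgeR 4.0.16 on recovered reads, diffSplice, other filters, pseudocounts, references and left-out libraries were alternatives. Only the limma usage fit was tried on simulated reads, for junctions without a dropped value and with a constant reference. That trial does not cover calls that rest on near-0 libraries, the level test or the alternatives.

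Replicate numbers were taken as a possible pairing. Same-numbered libraries of the 2 groups correlated in their deviations from the group means at 0.146 to 0.459, all over 0.1. Libraries with different numbers correlated at -0.257 to 0.140, some also over 0.1, so the 2 ranges nearly meet. Libraries of a group differed beyond sampling noise (lowest chi-square per degree of freedom 5.30). Members were named if among the 12 with highest RPM, called in usage without overlap, up to 3 per list by smallest usage p (up to 2 by RPM where none was tested), in Cop1, Trib1, Trib2, Cebpa or Csf2rb (which had none), or among the 8 with at least 100 reads and the highest ratio to the reference; of 78 members in the text, 32 came from this rule and 46 were chosen after their values were seen. A read over several junctions counts at each, and how strand entered the counting is not given. Some items are not reported here. Sequences and coordinates are from Gencode M21 (mm10) and rest on the match by number, except where the name gives a position.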

Additional observations from a re-analysis of the deposited data

Results flagged for a closer look

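Among 160 groups of 4 libraries examined (both groups for each of 78 members, and for the share of reads and of dropped values), 23 flags arose where a group held a library whose gap to the nearest of the other 3 was above Dixon's 95% critical value for the range; chance alone flags about 1 in 20 groups. Of the 78 members, 46 were chosen after their values were seen, so the number of flags cannot be read against that rate. In RPM, the library apart was low at 0.0445 in Cop1KO replicate 4 for Ptpn11, Ifngr1 (the entry) and Psmd5, at 0.0477 in Cop1WT replicate 1 for Ccdc127 and at 0.0529 in Cop1WT replicate 3 for Ssh3. It was high, with the other 3 near 0, at 4.15 for Exoc1 in Cop1KO replicate 2, 246 for Fxyd5 in Cop1KO replicate 3, 9.21 for Stat5a in Cop1WT replicate 3, 9.15 for Ptpn11 in Cop1WT replicate 1, 5.47 for Ipo9 and 16.5 for Lcn2 in Cop1KO replicate 4, 3.81 for the Gga3 entry in Cop1WT replicate 3, and, for the Hdac7 entry, 7.07 in Cop1WT replicate 4 and 4.29 in Cop1KO replicate 1.

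The others were smaller shifts. Cop1KO replicate 4 was nearer to Cop1WT for Cd300lf (1.42), the Caprin1 entry E7.1-I8.2 (17.4) and Dis3 E8.1-I9.2 (6.10). Cop1WT replicate 4 was apart for Nabp1 (12.2), Nap1l1 (73.3) and Caprin1 I8.2-E10.1 (61.1). Cop1WT replicate 3 was apart for Gda (3.97) and Clk3 E2.1-I3.2 (11.7), and Cop1WT replicate 2 for Slc2a6 (6.74).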

How the results depend on the processing

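The 2 usage calls became 0 with the replicate block (61 members at an unadjusted p under 0.05; edgeR without a block called 2), 1 when junctions with a dropped value were left out, 0 when the block was added to that (chosen after seeing the data; 53 at an unadjusted p under 0.05), 0 with at least 100 reads (17 at an unadjusted p under 0.05) and 17 of 970 with diffSplice (1.75%; 5 higher, 12 lower), beside 0.696% of all junctions. The call kept when junctions with a dropped value were left out was that of Pex11g, whose values could not be counted as dropped. Leaving out 1 library gave 0 to 5 usage calls. The 107 level calls became 131 with the replicate block, and 11 of the 107 were lost in it. Among members with values in the text, the pairing removed the level calls of Exoc1 and Pik3ap1 I4.2-E6.1 and added that of Cdh1. Leaving out 1 library gave 39 to 152 level calls, fewest without Cop1KO replicate 3, with 51 and 44 without Cop1KO replicates 1 and 2 and 49, 45 and 55 without Cop1WT replicates 1, 2 and 4; edgeR gave 93 and TMM scaling 79. Of the 39 level changes given, 17 passed in every setting that gave them a value, and 0 changed sign. The ratio of the Cop1KO to the Cop1WT share of reads, 0.978, ranged from 0.971 to 0.989 without 1 library. Without dropped values, 99.1% of members with at least 100 reads and 84.9% of those with at least 20 had usage changes within 0.5; a junction that reaches 100 reads in no library cannot have a value counted as dropped, and the part of such values in this spread was not tested.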
